A study of Mus musculus with 2 samples.

Results

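The transcription factor p53 (gene Trp53), its regulators Mdm2 and Mdm4 and 7 of its direct targets (Gadd45a, Btg2, Plk2, Ccng1, Zmat3, Trp53inp1 and Sesn2) were compared between 2 mouse lung squamous cell carcinoma (SCC) lines. Probe sets were taken by the gene symbol in the deposited array table, which gave 10 genes of 20679 and 25 probe sets of 45101, each naming its member alone. Total RNA of cultured cells was read on Affymetrix mouse genome arrays, where sets of short oligonucleotide probes measure the transcripts of a gene. The lines, S1 and S2, have 1 sample each in the labels, and both came from the KALLU lung SCC line of KA/KA mice, which carry a kinase-dead form of IKKα knocked into its own gene. They were sorted by the surface proteins Sca1 and CD24. S1 is given as high in Sca1 and tumorigenic, which is read here as KALLU+ (high in Sca1, CD24-), and S2 as low in Sca1 and less tumorigenic, read as KALLU- (low in Sca1, CD24+). Both lines share the KA/KA genotype and were grown in DMEM with serum, so neither is a normal or wild-type IKKα control, and each is a single line. Neither the p53 genotype of the lines nor any DNA-damaging treatment is given in the sources used here.

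The deposited value of a probe set is a signed linear fold change of S1 over S2, negative where S1 was lower. Here it is given as a log2 fold change, in which 1 stands for 2-fold, and the probe sets of a gene were summarised by their median. The table holds no signal, p-value or value per array, so no difference could be tested, no SD or depth (signal over background) can be given, and levels of different genes were not compared. For Ly6a, the gene of Sca1, the log2 fold change was -2.57, against the description of S1. For Cd24a, the gene of CD24, the median was -5.73 over 3 probe sets, all lower in S1, which is the direction of the CD24- sort. Because the sorting markers go opposite ways with the label, the line is called the line labelled S1, and every direction rests on that label. Of the squamous markers, Krt5 had a log2 fold change of -0.07 and Krt14 one of 0.36, and whether they are expressed cannot be read from ratios. Of 4 fibroblast markers Fap was 7.98-fold lower in the line labelled S1, Lum had a value of -0.99, Pdgfra -0.46 and Dcn 0.42, and their part in the values below was not tested. All 4 immune and 4 endothelial markers had medians between -0.37 and 0.31. A yardstick of scatter came from genes of sensory neurons: the 79 probe sets for vomeronasal and olfactory receptors lay between -0.55 and 0.38. Whether that range holds for genes with more signal cannot be told, because no signals are given. The probe sets of 1 gene differed by a pooled SD of 0.49 over the 9609 genes with 2 or more.

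p53 is a tumour suppressor that binds DNA as a tetramer and activates genes of cell cycle arrest, apoptosis, DNA repair and metabolism after DNA damage and other stress. Mdm2 is both a target of p53 and the ubiquitin ligase that marks it for destruction, and the related Mdm4 holds back its transcriptional activity. Because p53 is controlled largely through protein stability and modification, the RNA of its targets is often read as a sign of its activity, although most targets also respond to other factors. Loss of p53 function is frequent in human lung SCC.

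p53 recognises a pair of adjacent 10-base decamers. An exact match to the p53 decamer consensus, which is named here and not spelled because several positions allow more than 1 base and which reads the same on both strands, was searched in RefSeq windows of 250 bases before to 50 after each gene start (GRCm38.p6). A decamer was present in 8.36% of all 32851 windows. Of the 8 members with a window, Trp53, Mdm2, Ccng1 and Gadd45a held 1 decamer each, while Mdm4 (in both of its windows), Sesn2, Plk2 and Btg2 held no exact match, which says only that these letters are not in those windows. Zmat3 and Trp53inp1 had no window. In Ccng1 the decamer was part of a full site of 2 decamers with 1 mismatch, AGACCTGCCCGGGCAAGCCT, from 195 to 176 bases before the start, and such a site was found in 22 windows, or 0.067% of all. The 250 bases before the start are shown for the 2 members whose values lay farthest from 0, Mdm2 and Gadd45a, and for Ccng1 because of its full site, with the exact decamer in capitals. The Mdm2 window is chr10:117710759-117711008, that of Gadd45a chr6:67037408-67037657 and that of Ccng1 chr11:40755287-40755536, all on the minus strand.
Mdm2: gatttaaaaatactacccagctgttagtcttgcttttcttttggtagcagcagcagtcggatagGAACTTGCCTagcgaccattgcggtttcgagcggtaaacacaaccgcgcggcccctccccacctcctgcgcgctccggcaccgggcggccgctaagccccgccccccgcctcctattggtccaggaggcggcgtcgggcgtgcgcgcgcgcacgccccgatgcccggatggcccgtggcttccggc
Gadd45a: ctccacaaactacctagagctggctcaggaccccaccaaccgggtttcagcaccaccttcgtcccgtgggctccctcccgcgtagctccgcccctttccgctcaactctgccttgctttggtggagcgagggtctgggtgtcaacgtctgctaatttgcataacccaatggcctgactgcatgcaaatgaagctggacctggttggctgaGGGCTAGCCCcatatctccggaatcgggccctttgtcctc
Ccng1: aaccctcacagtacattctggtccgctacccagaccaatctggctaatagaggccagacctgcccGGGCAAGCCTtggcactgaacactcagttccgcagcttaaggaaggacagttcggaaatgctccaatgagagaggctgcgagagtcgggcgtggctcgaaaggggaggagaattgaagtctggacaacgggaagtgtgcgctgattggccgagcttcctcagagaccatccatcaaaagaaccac
The decamer lay 186 to 177 bases before the Mdm2 start, 40 to 31 bases before that of Gadd45a and 185 to 176 bases before that of Ccng1. In Trp53 it lay 75 to 66 bases before the start. By the same search as for Ccng1, the best full site had 9 mismatches in Mdm2, 12 in Gadd45a and 3 in Trp53. The decamers in capitals in Mdm2 and Gadd45a were thus not part of a full site of at most 1 mismatch. A match describes the sequence and is not evidence of binding, which these arrays did not measure.

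Across the 10 genes the lines differed little on balance. Gadd45a was the member with the largest difference, 2.67-fold lower in the line labelled S1, followed by Mdm2, with a median 1.91-fold higher that its 3 probe sets did not share. Trp53 itself had a median log2 fold change of -0.10. The other 7 members had medians between -0.54 for Btg2 and 0.56 for Plk2. The median of the 10 genes was 0.01, beside -0.04 for all genes, with 5 member medians above 0 and 5 below. When values were centred on the poly-A control probe sets, which adds 0.45 to every value, Trp53, Mdm4 and Sesn2 moved from below to above 0. In RNA of whole cultures, a smaller share of cells expressing a gene and less RNA per cell cannot be told apart.

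Past 2-fold there was 1 member lower in the line labelled S1, Gadd45a, and 0 higher, beside background shares of 5.08% (lower) and 4.69% (higher) over all genes. At 1.5-fold there was 1 member higher (Mdm2) and 1 lower (Gadd45a), beside 9.27% and 11.4% of all genes. By probe set, 1 of 25 was past 2-fold upwards and 1 downwards, beside 6.73% and 4.72% of all probe sets. The members' counts thus lay within about 1 gene or probe set of the table's own shares. The medians of Mdm2, Gadd45a and Plk2 fell outside the receptor range and those of 7 members inside it, whereas 26.2% of all genes fell outside. Of the 25 probe sets 18 were inside, beside 70.6% of all probe sets.

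**Figure D1:**
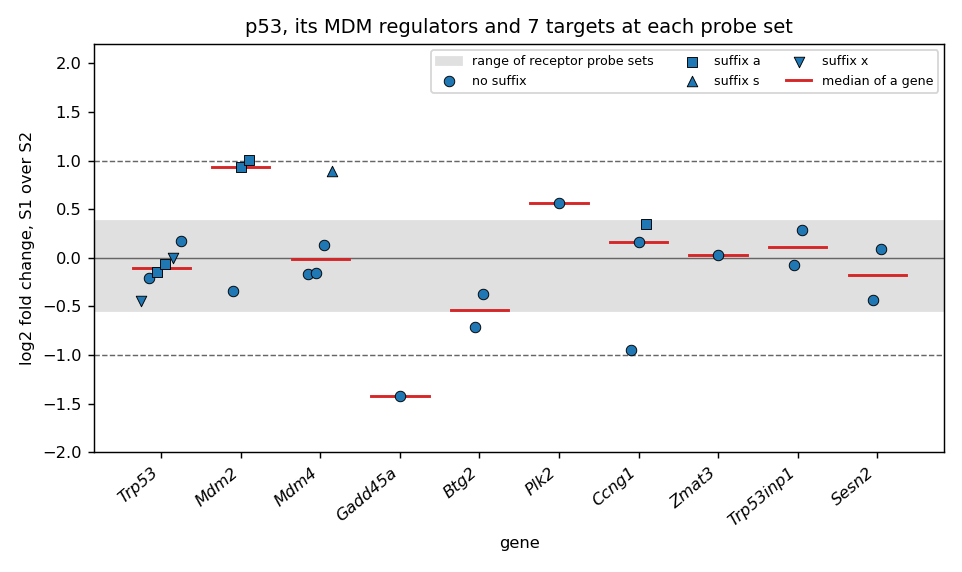
Log2 fold change of the line labelled S1 over S2 (vertical axis) at each of the 25 probe sets of the 10 genes (horizontal axis), with symbols for the array's suffixes, red bars for gene medians, a grey band for the range of the 79 receptor probe sets (-0.55 to 0.38) and dashed lines at 2-fold. Gadd45a at -1.42 lies below the lower dashed line, 1 Mdm2 probe set reaches 1.00 while another is at -0.35, and the 6 Trp53 probe sets lie between -0.44 and 0.17.

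Trp53, the gene of p53, was read by 6 probe sets, more than any other member. Their log2 fold changes were -0.44 at 1457623_x_at, -0.21 at 1438808_at, -0.14 at 1427739_a_at, -0.06 at 1426538_a_at, -0.00 at 1459781_x_at and 0.17 at 1459780_at. All 6 lay inside the receptor range, and the lowest carries the suffix x, which marks probes that may bind other transcripts. The probe sets spanned 0.62, a smaller span than the median of 1.01 among the 225 genes with 6 probe sets, of which 25.3% had a smaller one. The Trp53 median stood at percentile 41.5, meaning that 41.5% of all genes had a lower one. The 6 ratios of Trp53 RNA thus ran from 1.36-fold lower to 1.13-fold higher, and they hold no information on p53 protein or on mutations.

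Mdm2, the ubiquitin ligase and target in the feedback loop, was read by 3 probe sets that did not share a direction. The log2 fold change was 1.00 at 1427718_a_at (2.01-fold) and 0.93 at 1423605_a_at (1.91-fold), but -0.35 at 1457929_at (a signed fold of -1.27). The pair above 0 carries the suffix a, for probe sets that read several transcripts of 1 gene, and the probe set below 0 carries none. Their span of 1.35 exceeded that of 87.6% of the 2411 genes with 3 probe sets, for which the median span was 0.49. The Mdm2 median of 0.93, at percentile 94.8 of all genes, was the highest among the members, and without probe sets bearing suffixes s, x or a it became -0.35. Which transcripts of Mdm2 each probe set reads is not given in the table.

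Mdm4, which binds p53 and masks its activation domain, was read by 4 probe sets. The log2 fold changes were -0.16 at 1453982_at, -0.15 at 1458223_at, 0.14 at 1419558_at and 0.89 at 1460542_s_at. The 3 lower values lay inside the receptor range, and the highest belongs to a probe set with the suffix s, which marks probes shared by several genes or transcripts. The median was -0.01, and it rose to 0.01 when values were centred on all probe sets. The span of 1.05 exceeded that of 73.7% of the 1090 genes with 4 probe sets.

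Among the targets linked to growth arrest, Gadd45a, whose stress-inducible protein acts in cell cycle arrest and DNA repair, had a value of -1.42 at 1449519_at, the 1 probe set that reads it. It stood at percentile 2.90 of all genes, and no other probe set of the array named it to set beside this value. Centred on the poly-A controls it was -0.97, just short of 2-fold. Btg2, an antiproliferative cofactor of messenger RNA deadenylation, had values of -0.71 at 1416250_at and -0.37 at 1448272_at. It was the single member among the 7 with 2 or more probe sets whose values all had 1 sign, and its median of -0.54 lay just inside the receptor range. Plk2, a polo-like kinase of centriole duplication and stress responses, had a value of 0.56 (1.48-fold) at 1427005_at alone, at percentile 90.2. Gadd45a and Btg2 thus lay below 0 and Plk2 above it. Settings that changed the probe sets could not reverse these signs. Gadd45a and Plk2 have 1 probe set each, without a suffix, and both Btg2 probe sets have no suffix and lie below 0. Centring on all probe sets or on the poly-A controls left the signs unchanged, with Btg2 at -0.09 under the latter.

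Ccng1, cyclin G1, which recruits the phosphatase PP2A to Mdm2, had a median of 0.16 that concealed a wide span between its 3 probe sets. The log2 fold changes were 0.35 at 1420827_a_at, 0.16 at 1450017_at and -0.95 at 1450016_at, where the signed fold was -1.93. The span of 1.30 exceeded that of 86.4% of genes with 3 probe sets. Taking only the probe sets with no suffix, the Ccng1 median was -0.39, so its direction depended on which probe sets were used. Ccng1 and Mdm2, both of which feed back on p53, were the members whose probe sets differed most.

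The remaining 3 targets had medians inside the receptor range. Zmat3, a zinc finger protein that binds RNA and regulates splicing, had a value of 0.03 at 1449353_at alone. Trp53inp1, which promotes p53 phosphorylation and autophagy, had values of -0.07 at 1416927_at and 0.29 at 1416926_at. Sesn2, a sestrin that senses leucine and restrains mTORC1, had values of -0.44 at 1451599_at and 0.09 at 1425139_at. Both genes had 1 value on each side of 0 and spans of 0.36 and 0.53, larger than those of 62.7% and 75.1% of the 5258 genes with 2 probe sets.

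Disagreement between probe sets of 1 gene was common among the members. Values of both signs were found in 6 of the 7 members with 2 or more probe sets, beside 42.2% of all 9609 such genes, and these include genes with only 2 probe sets, whereas Trp53, Mdm2, Mdm4 and Ccng1 have 3 to 6. The small median of the members therefore does not stand for 10 values near 0. It combines genes with close probe sets, such as Trp53, with genes such as Mdm2, Mdm4 and Ccng1, whose spans were all above 1.

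**Figure D2:**
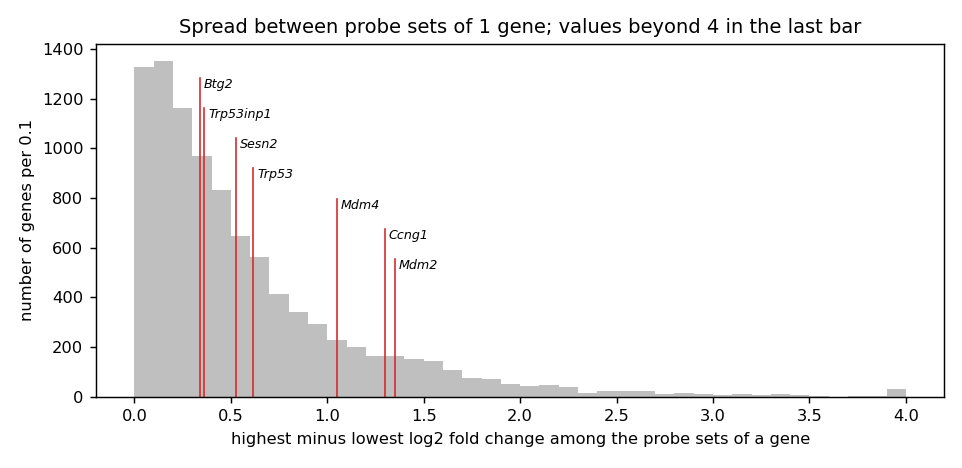
Histogram of the span between the highest and lowest log2 fold change of a gene (horizontal axis, spans beyond 4 in the last bar) over the 9609 genes with 2 or more probe sets (vertical axis, genes per 0.1), with red lines for the 7 members that have 2 or more. Btg2 at 0.34, Trp53inp1 at 0.36, Sesn2 at 0.53 and Trp53 at 0.62 lie near the bulk, and Mdm4 at 1.05, Ccng1 at 1.30 and Mdm2 at 1.35 lie in the tail. The bars pool genes with different numbers of probe sets, and the median span was 0.25 with 2 and 0.65 with 4. Of genes with as many probe sets, 73.7% had a smaller span than Mdm4, 86.4% than Ccng1 and 87.6% than Mdm2.

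**Figure D3:**
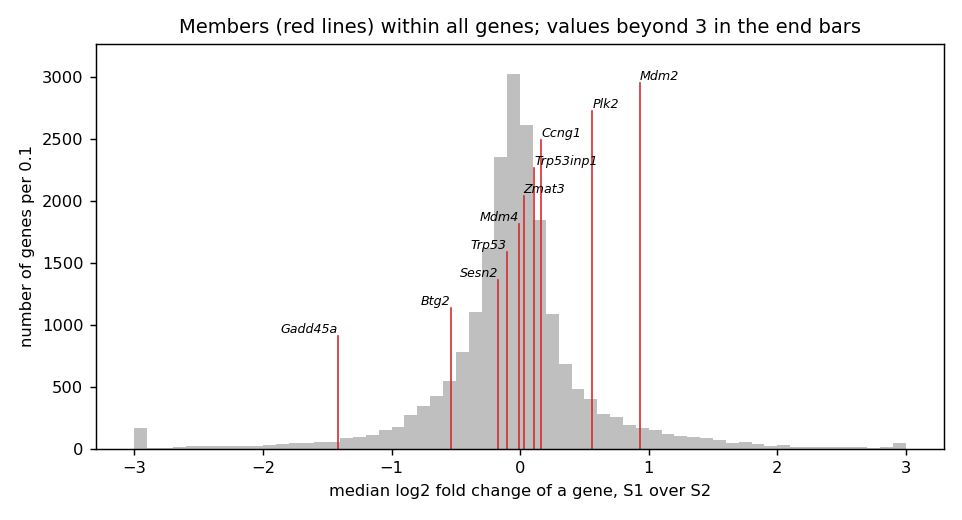
Histogram of the median log2 fold change of all 20679 genes (horizontal axis, values beyond 3 in the end bars, vertical axis in genes per 0.1), with red lines at the 10 members. Gadd45a at -1.42 and Mdm2 at 0.93 are the outermost members, at percentiles 2.90 and 94.8.

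The rest of the pathway was described with 8 lists of 97 genes, all of them measured, none of them members. In the 5 lists of other direct targets, 55 genes in all, the median log2 fold change was -0.16, beside -0.04 for all genes and 0.01 for the members. Past 2-fold, 8 of these genes were lower in the line labelled S1 and 3 higher, with 36 below 0 and 19 above. Over all genes 5.08% were at least 2-fold lower and 4.69% at least 2-fold higher. Of the 20679 genes, 11627 lay below 0 and 8980 above it. By probe set the shares past 2-fold were 4.72% downwards and 6.73% upwards. Under the poly-A centring the counts of the 55 targets became 4 lower and 5 higher and their median 0.29. That centring adds the same amount to every gene, so the distance between this median and that of all genes stayed the same. Shares of all genes past 2-fold were not counted under it.

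Cdkn1a, which encodes the CDK inhibitor p21 and is the best known arrest target, had values of -0.98 and -0.94 at its 2 probe sets, both just short of 2-fold lower. Its 12-gene list of arrest and feedback targets had a median of -0.20, with 9 genes below 0 and 3 above. Phlda3, a repressor of Akt and the 1 gene of the list past 2-fold, had a log2 fold change of -1.30. Over all genes 5.08% were at least 2-fold lower and 4.69% at least 2-fold higher. Of the members linked to arrest, Gadd45a and Btg2 were also below 0 and Plk2 above it, and 11627 of all 20679 genes lay below 0.

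The apoptosis list of 16 genes had a median of -0.20, and its outermost genes lay far from 0 in both directions. Dram1, a lysosomal protein that promotes autophagy, was 16.3-fold lower in the line labelled S1 (log2 fold change -4.02), and Fas, a death receptor, 4.02-fold lower (-2.01). Ddit4, an inhibitor of mTORC1, had a value of -1.56 and Perp, a desmosomal protein, one of -1.17. Against these 4 genes stood Pmaip1, which encodes the BH3-only protein Noxa, 12.4-fold higher (3.63) at percentile 99.9 of all genes. Past 2-fold the list thus had 4 genes lower and 1 higher of 16, beside 5.08% and 4.69% of all genes. Bax, a pore-forming protein of mitochondria, had a value of 0.10 and Bbc3, which encodes the BH3-only protein Puma, one of 0.21, both inside the receptor range. Each of the 7 genes named here was read by 1 probe set, so none of the values has a second reading.

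Of the 8 repair targets, 2 were past 2-fold upwards and 0 downwards, with a list median of 0.03, beside 4.69% and 5.08% of all genes. Rrm2b, the p53-inducible subunit of ribonucleotide reductase, had values from 1.06 to 1.76 at 4 probe sets, all past 2-fold, and a median of 1.18. Polk, a translesion DNA polymerase, had values of 0.52 and 1.87. Among the 12 metabolism and redox targets, with a median of -0.53 and 9 genes below 0 (11627 of 20679 over all genes), those past 2-fold were Lif, a cytokine of the interleukin-6 family (-1.59 and -1.17), and Cpt1c, a brain-type carnitine palmitoyltransferase (-1.01). The 7 secreted and adhesion targets had a median of -0.14, and 1 was past 2-fold, Igfbp3, which binds insulin-like growth factors, with values of -2.38 and -1.25.

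Upstream of p53, the list of 20 damage kinases and p53 modifiers had a median of -0.03 and held 4 genes past 2-fold upwards and 1 downwards, beside 4.69% and 5.08% of all genes. Atm and Atr, the apical kinases of the DNA damage response, had medians of 1.22 and 1.23, over 2 probe sets from 0.91 to 1.52 and 3 from 0.48 to 2.10. Sirt1, a deacetylase that acts on p53, had a value of 2.13 at 1 probe set, and Trim24, a ubiquitin ligase for p53, a median of 1.18 with all 3 probe sets past 2-fold. The 1 lower gene was Hipk2, a kinase that phosphorylates p53, with a median of -1.10 over 8 probe sets of which 7 were below 0; it fell outside the rule for named genes and was named after its values were seen. Cdkn2a, the locus of the Mdm2 inhibitor p19Arf and of p16, had a value of 0.21 at a single probe set that may read both products.

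The p53 relatives gave values near 0, with medians of -0.09 over 4 probe sets of Trp63, the master factor of squamous epithelium, and 0.00 over 2 of Trp73. In the 6-gene list of relatives and ASPP partners 1 gene was past 2-fold, Ppp1r13b (the p53 cofactor ASPP1), with 1.30 at a single probe set of suffix s. The 16 cell cycle genes that p53 lowers through p21 and the DREAM repressor complex had a median of -0.01, with 8 above and 8 below 0. Ect2, a regulator of cytokinesis, was the 1 gene of that list past 2-fold, at 1.46 (2.76-fold higher). For both lists the shares over all genes were 4.69% past 2-fold upwards and 5.08% downwards, and 11627 of 20679 genes lay below 0.

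**Figure D4:**
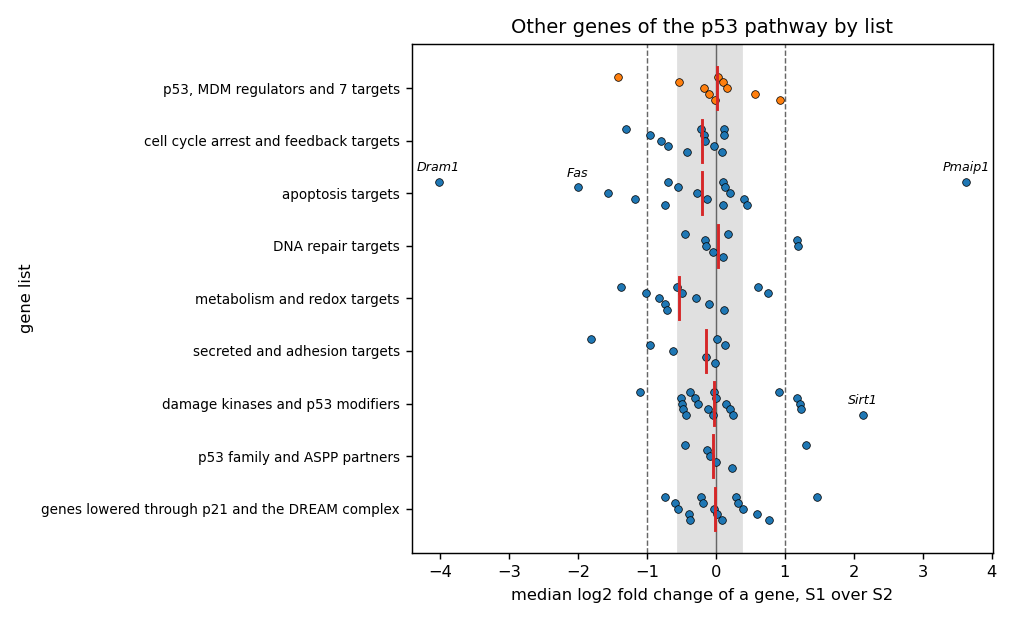
Median log2 fold change of each gene (horizontal axis, the line labelled S1 over S2) in the 10 members (orange) and 8 lists of other p53 pathway genes (blue; vertical axis), with red bars for list medians, the grey receptor range and dashed lines at 2-fold. Dram1 (-4.02), Fas (-2.01), Sirt1 (2.13) and Pmaip1 (3.63) lie farthest out, whereas the list medians run from -0.53 to 0.03 and shift upwards by about 0.45 under the poly-A centring.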

How the data were processed

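RNA was isolated with TRIzol, biotin-labelled and read on Affymetrix mouse genome arrays, for which the authors used Partek Genomics Suite. The submitters' processing notes list MAS5. Background correction, normalization and the number of arrays behind a value are not given in the sources used here. The authors deposited 1 score per probe set, a signed linear fold change of S1 over S2, with 0 values between -1 and 1, and these values were used as the authors' own. Each was turned into a signed log2 fold change. Of 45101 probe sets, 5797 name no gene and 1280 several, and genes were summarised by the median over probe sets naming them alone. With 1 sample per line no test was run.

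The members and lists were chosen with earlier results of these data known. Named were all members, 8 fixed genes (Cdkn1a, Bax, Bbc3, Pmaip1, Perp, Cdkn2a, Trp63 and Trp73) and, per list, up to 6 genes at least 2-fold changed with every probe set on 1 side of 0. Scatter was read from the receptor probe sets and from the pooled SD between probe sets of a gene. Alternatives were fold thresholds of 1.5 and 4, suffix filters, the probe set of largest change instead of the median, probe sets naming several genes, and centring on all or on 24 poly-A control probe sets. Promoter windows were from RefSeq (GRCm38.p6). The scripts were tested on simulated data. Python 3.11.15, numpy 2.4.6, pandas 2.3.3 and matplotlib 3.10.9 were used.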

Additional observations from a re-analysis of the deposited data

How the results depend on the processing

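Gadd45a, read by 1 probe set without a suffix, could not change under the choices of probe sets. No other member became at least 2-fold lower under them. Gadd45a remained the 1 member at least 2-fold lower when values were centred on all probe sets. There were 0 members at least 4-fold lower, and 0 at least 2-fold lower when centred on the poly-A controls. At the looser threshold, 1 member was at least 1.5-fold higher. Members at least 2-fold higher rose from 0 to 1 with the largest change per gene. They rose to 2 under the poly-A centring (Mdm2 at 1.38 and Plk2 at 1.01). The members' median was -0.21 with the largest change, -0.16 without suffixes s, x and a, and -0.04 without s and x. No median of all genes was taken for these settings. Under the poly-A centring the members' median was 0.46. Every gene was shifted by the same amount there, so its distance from the median of all genes stayed the same. Single members moved by more than the pooled SD of 0.49 as follows: Mdm2 to -0.35 and Ccng1 to -0.39 without suffixes s, x and a, and Mdm4 to 0.89 and Ccng1 to -0.95 with the largest change. Counting probe sets of several genes could not move any of the 10 members, because each of their probe sets names its member alone. Leaving out suffixes s and x alone, which was chosen after seeing the data, moved none of them by more than the pooled SD.

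For the other lists, at 1.5-fold the 55 direct targets had 5 genes higher and 18 lower, beside 9.27% and 11.4% of all genes. The 16 genes lowered through DREAM had 3 higher and 2 lower. Shares of all genes were not counted at 4-fold, under the suffix filters, with the largest change or under the poly-A centring. At 4-fold the targets had 1 and 2, the kinases and modifiers 1 and 0, and the p53 relatives and the DREAM genes 0 higher. Without suffixes s, x and a, the kinases and modifiers had 0 lower and the relatives and DREAM genes 0 higher; the relatives also had 0 without s and x. With the largest change, the targets had 5 higher and a median of -0.37, and the kinases and modifiers 2 lower. Under the poly-A centring the targets had 5 higher, 4 lower and a median of 0.29, the kinases and modifiers 0 lower and 0.41, the relatives a median of 0.40, and the DREAM genes 3 higher and 0.44. The cause was not tested. No paired analysis was possible because each line has 1 sample and the table has 1 value per probe set. A filter on dim probe sets could not be made, since signal over background is unknown.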
